A study of Mus musculus with 6 samples.

Results

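Genes for collagens, laminins and the proteins that assemble extracellular matrix were examined in mouse embryonic stem cells with lowered Pcl2. The set named 48 genes, and a gene was measured if a probe set of the array named it and no other gene. This held for 45 of the 48. The brightest probe set by mean over the 6 arrays stood for each gene, and 42 of the 45 passed the filter on low signals, out of 13095 genes tested on the array. Fbn1 and Spp1 were not analysed here, and the probe sets of Loxl2 also named Gm21451 and were left out by the rule. Dcn, Lum and Postn had a probe set but stayed under the filter.

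The cells were R1 embryonic stem cells, an established mouse line grown undifferentiated in serum with leukaemia inhibitory factor. In the tested cells a short hairpin RNA (shRNA) against Pcl2, gene symbol Mtf2, was stably expressed, and its 3 samples came from 1 clone. The control cells stably expressed a mismatch version of the hairpin, also in 3 samples. Pcl2 is a Polycomb-like partner of Polycomb repressive complex 2, and the comparison asks what changes when it is lowered. Because the shRNA samples share a clone, the hairpin and the clone cannot be told apart, and p-values measure the spread between samples of each kind. The array number limits the precision.

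Extracellular matrix has 2 broad forms. Basement membrane is a thin sheet under epithelia in which networks of type IV collagen and of laminin trimers are tied together by nidogen, perlecan and agrin, and the early embryo already makes it. Interstitial matrix is made mainly by fibroblasts and related cells from fibrillar collagens, fibronectin, elastic fibres and small proteoglycans. Collagen chains are hydroxylated, folded with the help of a dedicated chaperone and, once outside the cell, cross-linked by lysyl oxidases.

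Values are MAS5 signals, the array maker's linear measure of a probe set's brightness, and per-sample values are given for samples 1, 2 and 3 of a group in that order. Changes are log2 fold changes of log2(signal + 7), Pcl2 shRNA over mismatch control, with a standard error (SE) and limma's adjusted p over all genes tested, and "passed" means an adjusted p below 0.05. A signal of 20.3, the brightest among the array's bacterial controls that received no spike, was taken as the background level. Levels of different genes are not compared, because each probe set has its own brightness. Mtf2 signals were 1028 ± 150 in the Pcl2 shRNA cells and 1723 ± 220 in the control cells (SD, n = 3 each). The log2 fold change was -0.74 (SE 0.17, adjusted p = 0.0157). That call was lost without Pcl2 shRNA replicate 3 (adjusted p = 0.0574), without mismatch control replicate 1 (adjusted p = 0.0519) or without both samples numbered 1 (adjusted p = 0.0992). Further bright Mtf2 probe sets gave -0.68, -0.75 and -0.73, each with every shRNA sample below every control sample. Dim Mtf2 probe sets gave 0.25 and -0.15, with the groups overlapping. Embryonic stem cell markers were bright on every array, with 6 of 10 higher in the shRNA cells (Sox2, Zfp42, Fbxo15, Tdgf1, Esrrb and Klf4), none lower, and summed signals of 39310 to 49680 in the Pcl2 shRNA samples against 22930 to 29330 in the controls. The 6 that were higher are 60% of these markers, against 4.46% of all genes tested. The marker lists were chosen with earlier results of these data known. Afp and Ttr, secreted proteins of visceral endoderm, were at background on every array by their brightest probe sets. They were the only 2 of the 15 endoderm markers for which this held. Amn, on the same list, was above background on every array, with 40.3 to 45.4 in the shRNA cells and 49.4 to 71.9 in the control cells.

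Of the 42 matrix genes tested, 7 fell, 2 rose and 33 did not pass. The 7 that fell make up 16.7% of the matrix genes, where 8.16% of all genes tested fell. The 2 that rose make up 4.76%, close to the 4.46% of all genes tested that rose (12.6% of all genes changed in either direction). The set was chosen with earlier results of these data known, so these shares describe it and test nothing. The median log2 fold change of the matrix genes was -0.39, with a range of -3.39 to 1.15, and that of all genes tested was 0.02. In 9 of the 42 every shRNA sample lay below every control sample, against 16.7% of all genes, and in 3 every shRNA sample lay above, against 14.5% of all genes. RNA was taken from whole cultures, so fewer cells of a type and less RNA per cell cannot be told apart.

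**Figure D1:**
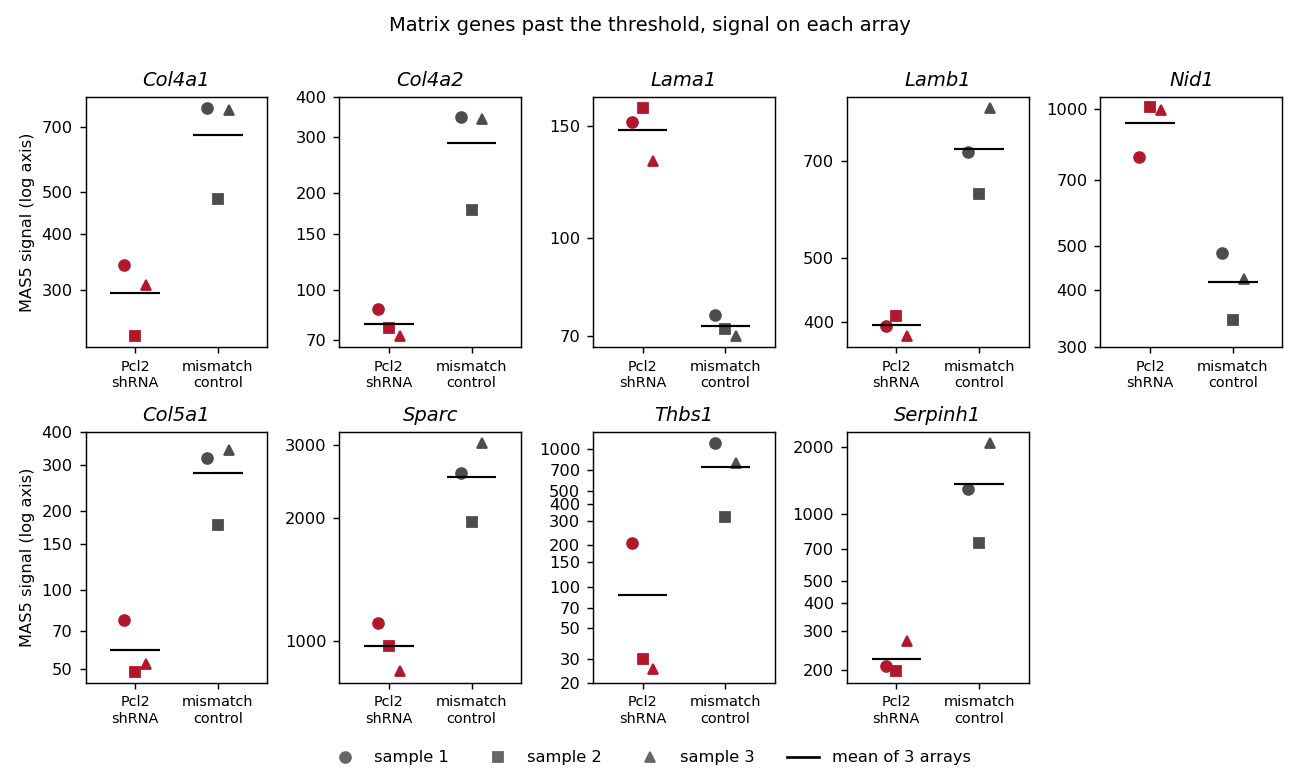
MAS5 signal (log axis) of the 9 matrix genes past the threshold on each array, Pcl2 shRNA left and mismatch control right, with a symbol per sample number and a line at the mean of 3 arrays. Lama1 and Nid1 lie higher in all shRNA samples, and the other 7 genes lie lower in all shRNA samples.

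Basement membrane genes moved in both directions. Of the 15 tested, 3 fell (Col4a1, Col4a2 and Lamb1), 2 rose (Lama1 and Nid1) and 10 did not pass, with a median of -0.50. That is 20% lower and 13.3% higher, against 8.16% and 4.46% of all genes tested. Col4a1 and Col4a2 encode the chains of the most widespread type IV collagen trimer. Their genes lie head to head on chromosome 8, and in the RefSeq annotation of GRCm38.p6 the 2 transcription starts are 21 bases apart. The promoter windows below, 250 bases before to 50 after each start, are printed because the 2 windows overlap and the 2 genes fell together. Capitals mark the 78 bases that both windows hold, read on opposite strands.
Col4a1, chr8:11312777-11313076, minus strand: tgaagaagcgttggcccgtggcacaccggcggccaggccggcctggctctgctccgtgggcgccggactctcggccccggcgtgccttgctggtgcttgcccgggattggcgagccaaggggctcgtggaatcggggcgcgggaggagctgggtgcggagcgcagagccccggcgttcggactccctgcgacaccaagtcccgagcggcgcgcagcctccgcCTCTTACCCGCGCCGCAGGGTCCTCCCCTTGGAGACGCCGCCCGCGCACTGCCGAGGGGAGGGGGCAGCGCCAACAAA
Col4a2, chr8:11312555-11312854, plus strand: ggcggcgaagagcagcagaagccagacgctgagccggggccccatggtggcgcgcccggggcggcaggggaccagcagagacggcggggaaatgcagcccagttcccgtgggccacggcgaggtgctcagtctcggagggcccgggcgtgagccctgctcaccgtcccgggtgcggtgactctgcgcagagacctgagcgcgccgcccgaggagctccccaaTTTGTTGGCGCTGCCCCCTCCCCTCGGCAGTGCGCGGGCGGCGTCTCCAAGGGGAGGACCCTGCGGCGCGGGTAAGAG

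Col4a1 had signals of 341, 236 and 308 in the Pcl2 shRNA cells and 772, 481 and 764 in the control cells. The groups did not overlap, and the log2 fold change was -1.15 (SE 0.22, adjusted p = 0.00731). A further Col4a1 probe set gave -1.20. Col4a2 had 87.6, 76.3 and 71.9 in the Pcl2 shRNA cells and 345, 178 and 340 in the control cells (log2 -1.73, SE 0.26, adjusted p = 0.00198). Both chains were lowest in sample 2 of the control, which still lay above every shRNA sample. Col4a5 and Col4a6, chains of another type IV trimer encoded side by side on chromosome X, did not pass. Col4a5 averaged 51.9 ± 4.63 in the shRNA cells and 86.1 ± 34.1 in the control cells (log2 -0.60, adjusted p = 0.208), its other probe set gave -2.02, and the gene passed without mismatch control replicate 2 (-0.88, adjusted p = 0.0499) and with the mean of its probe sets (-1.31, adjusted p = 0.0289). Col4a6 had signals of 22.5 to 37.4 in the shRNA cells and 26.5 to 45.5 in the control cells, with the groups overlapping. Col18a1, a collagen of basement membranes that carries heparan sulphate chains and releases endostatin, had a log2 fold change of -0.03 (adjusted p = 0.934), with 1768 to 2022 in the shRNA cells and 1606 to 2164 in the control cells.

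Laminins are trimers of an alpha, a beta and a gamma chain, and the 3 chains of laminin-111, the embryonic form, did not move together. Lama1, its alpha chain, had signals of 152, 160 and 132 in the Pcl2 shRNA cells and 75.7, 71.8 and 70.1 in the control cells. Every shRNA sample lay above every control sample, and Lama1 rose by log2 0.96 (SE 0.18, adjusted p = 0.00731). Lamb1, its beta chain, had 395, 409 and 381 in the shRNA cells and 722, 624 and 841 in the control cells. Lamb1 fell (log2 -0.86, SE 0.16, adjusted p = 0.00646), and its other probe sets past the filter gave -0.83 and -0.63. Lamc1, its gamma chain, had 516, 719 and 571 in the shRNA cells and 467, 574 and 665 in the control cells, which overlap (log2 0.08, SE 0.19, adjusted p = 0.834). Lama5, the alpha chain of later basement membranes, gave -0.50 (adjusted p = 0.194). Lamb2 gave -0.35 (adjusted p = 0.487) and Lamb3, a chain of the epithelial laminin-332, gave -0.99 (adjusted p = 0.15), with 1 of its 3 shRNA samples at background.

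The linkers of the sheet also differed among themselves. Nid1, nidogen 1, which bridges laminin to type IV collagen, had signals of 785, 1011 and 998 in the Pcl2 shRNA cells and 484, 344 and 425 in the control cells. It rose by log2 1.15 (SE 0.18, adjusted p = 0.00265), and its other probe set past the filter gave 1.09. Nid2, its paralogue, also had every shRNA sample above every control sample (785 to 874 against 541 to 763), but the difference did not pass (log2 0.36, adjusted p = 0.199). Hspg2 (perlecan) and Agrn (agrin), the heparan sulphate proteoglycans of the sheet, gave -0.52 (adjusted p = 0.116) and -0.54 (adjusted p = 0.236). The other Hspg2 probe set gave -0.78, with every shRNA sample below every control sample. Hspg2 passed with array weights (-0.65, adjusted p = 0.0451). The other Agrn probe set gave -0.17, with the groups overlapping.

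The promoter windows of Lamb1, which fell, and Nid1, which rose, are printed to set a gene of each direction beside the type IV pair. Capitals mark matches, on either strand, to CCAAT (the NF-Y box) and GGGCGG (the Sp1 box).
Lamb1, chr12:31265043-31265342, plus strand: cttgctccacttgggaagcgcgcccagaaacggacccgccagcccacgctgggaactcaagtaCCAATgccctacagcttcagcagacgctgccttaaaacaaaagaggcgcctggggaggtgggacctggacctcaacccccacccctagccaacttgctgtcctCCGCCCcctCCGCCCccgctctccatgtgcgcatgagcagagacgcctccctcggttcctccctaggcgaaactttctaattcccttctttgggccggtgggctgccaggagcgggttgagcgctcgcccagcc
Nid1, chr13:13437352-13437651, plus strand: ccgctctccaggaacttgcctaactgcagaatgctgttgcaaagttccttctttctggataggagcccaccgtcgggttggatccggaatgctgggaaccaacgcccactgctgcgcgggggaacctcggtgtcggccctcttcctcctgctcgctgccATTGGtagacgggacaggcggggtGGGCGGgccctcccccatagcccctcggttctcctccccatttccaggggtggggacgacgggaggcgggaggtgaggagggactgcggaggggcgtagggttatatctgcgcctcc
Both windows held both motifs: Lamb1 has 1 CCAAT and 2 GGGCGG, and Nid1 has 1 of each. The Col4a1 window above has 1 CCAAT and 1 GGGCGG, and the Col4a2 window has 1 and 3. The Col4a1 GGGCGG lies in the 78 bases that both windows hold, so it is also 1 of the 3 in the Col4a2 window. CCAAT was found in 37.4% of the 32851 RefSeq promoter windows of the same length and GGGCGG in 35.7%. Promoter windows were given for 31 of the 45 measured genes, of which 11 held CCAAT and 23 held GGGCGG.

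The fibrillar and interstitial genes gave 1 call. Of the 16 tested, Col5a1 fell, none rose and 15 did not pass by limma. That is 6.25%, close to the 8.16% of all genes tested that fell, and the median was -0.25. At an unadjusted p below 0.05 by limma, Col1a1 was the 1 further lower gene and no gene was higher. The share of all genes at that cut was not worked out. Col5a1, a chain of the type V collagen that starts fibrils, had signals of 76.5, 48.8 and 52.1 in the Pcl2 shRNA cells and 319, 177 and 343 in the control cells. The groups lay well apart, and the log2 fold change was -2.08 (SE 0.28, adjusted p = 0.00107). Another probe set gave -1.59, and 1 more was at background in every shRNA sample and at least 6.03-fold lower than in the control cells. The probe set at -1.59 became the brightest when some samples were left out. Without mismatch control replicate 1 the value for Col5a1 was then -1.38 (adjusted p = 0.0146).

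**Figure D2:**
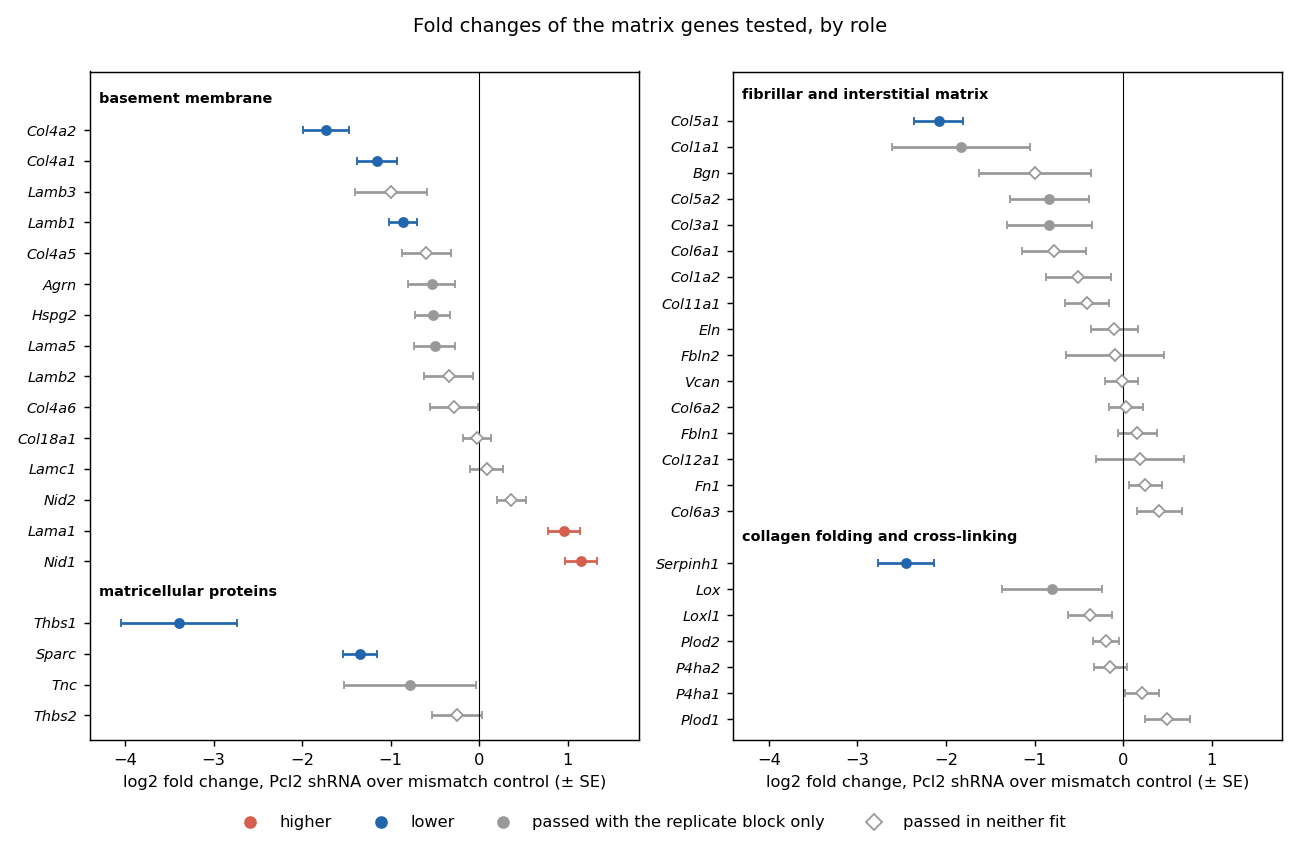
Log2 fold change, Pcl2 shRNA over mismatch control, with its SE for the 42 matrix genes tested, grouped by role. Red and blue points passed as higher and lower, grey circles passed only with the sample number as a block, and open diamonds passed in neither fit.

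Some other fibrillar collagens and interstitial genes of the set, unlike Col5a1, had groups that overlapped, with sample 1 high in both. Col1a1, the main chain of type I collagen, had signals of 130, 21.9 and 3.49 in the Pcl2 shRNA cells and 251, 81.5 and 75.0 in the control cells. Col1a2, its partner chain, had 210, 87.9 and 74.3 in the shRNA cells and 238, 130 and 135 in the control cells. Sample 1 was the highest of its group in both groups for each chain, so that shRNA sample 1 lay above control samples 2 and 3. Col3a1 (type III collagen) had 56.1, 17.9 and 12.1 in the shRNA cells and 93.7, 32.4 and 35.5 in the control cells. Col5a2, the second chain of type V collagen, had 97.9, 33.2 and 31.0 in the shRNA cells and 171, 70.8 and 58.4 in the control cells. Sample 1 was again the highest in both groups. At background were 1 shRNA sample for Col1a1 and 2 for Col3a1. The Col1a1 value at background was shRNA sample 3, at 3.49. The other Col1a1 probe set had 61.7, 20.8 and 24.8 in the shRNA cells and 98.1, 30.5 and 49.6 in the control cells. It gave a smaller difference, log2 -0.63 against -1.83 for the brightest. Fbln2 (fibulin 2, of elastic fibres and basement membranes) had 162, 45.7 and 44.0 in the shRNA cells and 173, 36.7 and 62.7 in the control cells. Bgn (biglycan, a small proteoglycan) had 280, 66.7 and 48.5 in the shRNA cells and 379, 82.2 and 264 in the control cells. In 10 of the 16 interstitial genes tested sample 1 was the highest in both groups, against 3 of the 15 basement membrane genes and 15.4% of all genes tested; this count was chosen after the values were seen.

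**Figure D3:**
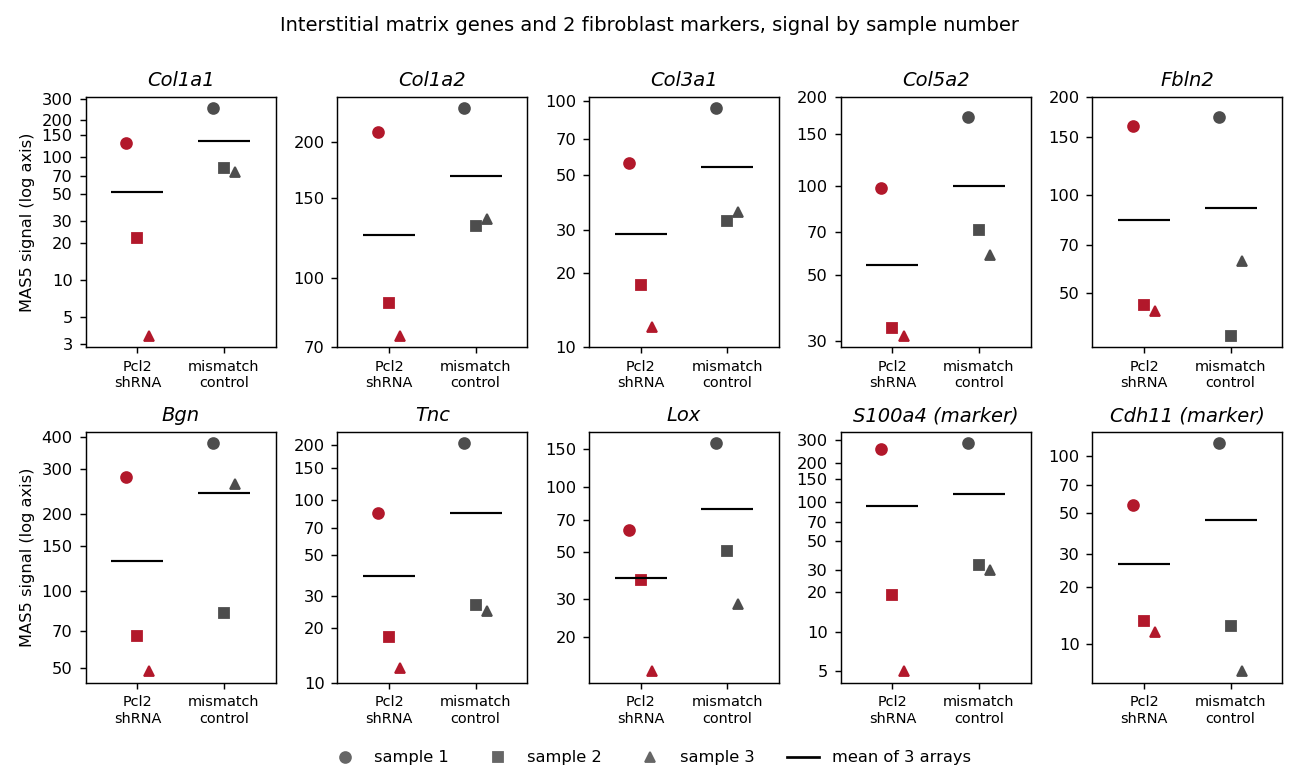
MAS5 signal (log axis) of 8 interstitial, matricellular and cross-linking genes and of the fibroblast markers S100a4 and Cdh11 on each array, Pcl2 shRNA left and mismatch control right. Circles, sample 1 of each group, are the highest of their group in every panel. The genes shown were chosen after the values were seen, and genes without this pattern are not shown.

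Some markers of fibroblasts were also highest in sample 1 of both groups, 6 of the 12 tested, and the other 6 were not. S100a4, a calcium-binding protein, had signals of 257, 19.1 and 4.93 in the Pcl2 shRNA cells and 282, 32.4 and 29.9 in the control cells. Cdh11, a mesenchymal cadherin, had 55.1, 13.2 and 11.6 in the shRNA cells and 117, 12.5 and 7.13 in the control cells. These 2 were named after their values were seen. Summed over the 17 fibroblast markers measured, the signal was 796, 468 and 524 in the shRNA cells and 1282, 480 and 568 in the control cells. Without S100a4 the sum over the other 16 was 539, 449 and 520 in the shRNA cells and 999.7, 448 and 538 in the control cells, so sample 1 of the control still stood above the rest and shRNA sample 1 lay near shRNA sample 3. Between the groups 1 of the 12 tested markers fell (Twist2, 15.0 ± 9.97 in shRNA cells and 64.2 ± 17.6 in control cells, 2 of 3 shRNA samples at background, log2 -1.79, adjusted p = 0.0122) and none rose, and Fap and Dpt were at background on every array by their brightest probe sets. Twist2 no longer passed without both samples numbered 1 (adjusted p = 0.0596). The 1 marker that fell is 8.33% of the 12, close to the 8.16% of all genes tested that fell. The part of such cells in the matrix results was not tested.

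With the sample number as a block, that is, comparing each shRNA sample with the control sample of the same number, more of the matrix genes passed. Then 15 of the 42 fell and 2 rose, against 13.8% lower and 9.97% higher of all genes tested. The labels give the numbers without saying that they mark shared cultures. The data alone pair them, and the block fit used the same values. Among interstitial genes Col1a1 (log2 -1.83, adjusted p = 0.0039), Col5a2 (-0.83, adjusted p = 0.00971) and Col3a1 (-0.83, adjusted p = 0.0305) fell in this fit beside Col5a1. In the basement membrane Agrn (adjusted p = 0.0092), Lama5 (adjusted p = 0.0142) and Hspg2 (adjusted p = 0.0341) joined the 3 that fell in both fits. Agrn had signals of 377, 511 and 682 in the shRNA cells and 530, 760 and 1009 in the control cells, and Lama5 had 301, 453 and 416 in the shRNA cells and 404, 681 and 596 in the control cells. Each shRNA sample lay below the control sample of its number, by -0.48 to -0.57 on the log2 scale for Agrn and -0.42 to -0.58 for Lama5, while the groups as a whole overlapped. In 9 of the 16 interstitial genes and 8 of the 15 basement membrane genes the shRNA sample was lower than the control sample of its number in all 3 numbers, against 27.0% of all genes tested, and 1 and 3 of them were higher in all 3, against 27.3%. Col1a1 differed by -0.91, -1.62 and -2.97 on the log2 scale in numbers 1, 2 and 3. The last value rests on an shRNA signal at background, and the other Col1a1 probe set gave -0.63 over all samples.

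Without both samples numbered 1, an alternative chosen after the values were seen, 5 matrix genes fell and 1 rose. Over all genes 483 fell and 192 rose in that setting. Col4a2, Sparc, Thbs1, Serpinh1 and Nid1 kept their calls and Col1a1 passed (-2.29, adjusted p = 0.0334). Col4a1 (-1.15, adjusted p = 0.0577), Lamb1 (-0.86, adjusted p = 0.0696), Lama1 (0.97, adjusted p = 0.0696) and Col5a1 (-1.28 by its other bright probe set, adjusted p = 0.0564) no longer passed with 2 samples a group. Col1a1 also passed without Pcl2 shRNA replicate 1 alone (-2.82, adjusted p = 0.0139), and gave -0.97, which did not pass, without Pcl2 shRNA replicate 3. Where Col1a1 passed, its value included Pcl2 shRNA replicate 3, which was at background. Leaving out 1 sample at a time gave -1.34 to -0.40 for Col3a1 and -1.31 to -0.39 for Col5a2.

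The other interstitial genes did not pass. Fn1 (fibronectin, the scaffold on which other fibrils assemble) had signals of 2508, 3143 and 4070 in the Pcl2 shRNA cells and 2512, 2611 and 2890 in the control cells, with the groups overlapping (log2 0.25, SE 0.19, adjusted p = 0.444), and its other probe set gave 0.77, with every shRNA sample above every control sample. Vcan (versican, a large proteoglycan) gave -0.02 by its brightest probe set. Dimmer Vcan probe sets past the filter gave -0.70, with 50, 51.2 and 86.7 in the shRNA cells and 107, 116 and 88.0 in the control cells, which do not overlap, and -0.58, with overlap. Fbln1 gave 0.16 and Eln (elastin) -0.10, and further Fbln1 probe sets gave -0.09 and -0.21. The type VI collagen chains, which form beaded microfilaments, gave -0.78 for Col6a1 (adjusted p = 0.209), 0.03 for Col6a2 and 0.41 for Col6a3 (adjusted p = 0.351). Every Col6a1 value of the shRNA cells (33.6, 8.25 and 26.2) lay below every value of the control cells (52.6, 33.9 and 35.7), and 1 of the shRNA values was at background. The Col6a2 probe set can cross-hybridise, and the other Col6a2 probe set gave -0.42, also with every shRNA sample below every control sample. Col11a1 and Col12a1 gave -0.41 and 0.19. The Col11a1 groups overlapped, and its highest control value was in sample 3. Dcn and Lum, small proteoglycans of fibroblasts, stayed at background by their brightest probe sets, with 9.96 to 19.9 and 7.28 to 18.1 in the shRNA cells and 8.49 to 14.8 and 9.16 to 13.0 in the control cells. A dimmer Dcn probe set reached 33.5 in control sample 1.

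Matricellular proteins, which sit in the matrix and modulate how cells attach to it, gave 2 calls among the 4 tested, both lower. That is 50% of a short list, against 8.16% of all genes tested. Thbs1 (thrombospondin 1) had signals of 206, 29.7 and 25.3 in the Pcl2 shRNA cells and 1103, 323 and 789 in the control cells. The groups did not overlap, although sample 1 was high in both, and the log2 fold change of -3.39 (SE 0.66, adjusted p = 0.00766) was the lowest among the 42 matrix genes. Its other probe set gave -2.49. Sparc (osteonectin), which binds collagen, had 1108, 972 and 844 in the shRNA cells and 2567, 1956 and 3035 in the control cells. Sparc fell (log2 -1.35, SE 0.19, adjusted p = 0.00144), and a further probe set also gave -1.35. Another, dim Sparc probe set gave 0.30, so that the mean over the 3 probe sets gave -0.80 (adjusted p = 0.0279). Tnc (tenascin C) had 85.2, 17.9 and 12.1 in the shRNA cells and 205, 26.5 and 24.7 in the control cells, with sample 1 far above the others. Tnc did not pass (log2 -0.78, adjusted p = 0.57) and passed with the block (adjusted p = 0.0396). For Tnc 2 of the 3 shRNA samples were at background, and without mismatch control replicate 1 the value was 0.115. Thbs2 gave -0.25 (adjusted p = 0.641). Postn (periostin), under the filter, had 24.5, 3.78 and 10.2 in the shRNA cells and 80.8, 17.0 and 16.3 in the control cells.

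Among the enzymes and the chaperone that make collagen, Serpinh1 stood alone in passing. Serpinh1 (HSP47), the chaperone of the endoplasmic reticulum that binds folded procollagen, had signals of 209, 198 and 271 in the Pcl2 shRNA cells and 1298, 738 and 2066 in the control cells. Serpinh1 fell (log2 -2.45, SE 0.31, adjusted p = 0.000901), and its other probe set gave -2.02. Its promoter window is shown because it was the only one of the 7 genes to pass. The capitals mark its only match to the 3 motifs searched, a GGGCGG.
Serpinh1, chr7:99353190-99353489, minus strand: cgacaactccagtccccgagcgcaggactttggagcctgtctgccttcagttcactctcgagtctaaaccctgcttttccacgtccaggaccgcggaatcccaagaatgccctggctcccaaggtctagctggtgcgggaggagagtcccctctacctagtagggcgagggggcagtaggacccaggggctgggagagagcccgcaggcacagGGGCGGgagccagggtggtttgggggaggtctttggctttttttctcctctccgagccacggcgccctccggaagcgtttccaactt
The third motif, GAANNTTC, the core of the heat shock element searched because Serpinh1 is a heat shock gene, is not among these letters; 7.86% of all promoter windows hold it, as do 2 of the 31 windows of the measured genes.

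The hydroxylases did not pass. P4ha1 and P4ha2, catalytic subunits of prolyl hydroxylase, gave 0.22 and -0.15. Plod1 and Plod2, lysyl hydroxylases, gave 0.50 (adjusted p = 0.255) and -0.19. Plod1 had 150, 269 and 317 in the Pcl2 shRNA cells and 170, 164 and 158 in the control cells, and rose without Pcl2 shRNA replicate 1 (log2 0.81, adjusted p = 0.0337). Lox, the lysyl oxidase that cross-links collagen and elastin, had 62.9, 36.8 and 13.8 in the shRNA cells and 160, 50.1 and 28.5 in the control cells. It again had sample 1 highest in both groups, did not pass (log2 -0.80, adjusted p = 0.421) and passed with the block (adjusted p = 0.0344). The Lox value of 13.8 in the shRNA cells was at background. Leaving out 1 sample at a time gave -1.29 (without mismatch control replicate 3) to -0.17 (without mismatch control replicate 1). Loxl1 gave -0.37 (adjusted p = 0.388). In all, 1 of the 7 folding and cross-linking genes fell (14.3%, against 8.16% of all genes tested) and none rose.

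Matrix genes outside the set, listed by role, gave 13 lower and 1 higher of 60 tested. That is 21.7% and 1.67%, against 8.16% and 4.46% of all genes tested. These lists, too, were chosen with earlier results of these data known, so the shares describe them and test nothing. Of the 10 other basement membrane genes tested 4 fell (40%, against 8.16% of all genes tested) and none rose by limma. None of the 10 was higher at an unadjusted p below 0.05. Tinagl1, a secreted glycoprotein related to tubulointerstitial nephritis antigen, averaged 26.0 ± 13.4 in Pcl2 shRNA cells and 122 ± 37.8 in control cells, with 1 shRNA sample at background (log2 -2.002, SE 0.34, adjusted p = 0.00372). Bcam, a cell surface receptor for laminin alpha 5, averaged 366 ± 153 in shRNA cells and 978 ± 238 in control cells (log2 -1.47, adjusted p = 0.0121). Fras1 and Frem2, partners in a complex that anchors embryonic epithelia, fell as well. Fras1 was at background in every shRNA sample and at least 2.64-fold lower than in the control cells (adjusted p = 0.0144), and Frem2 gave -1.04 (adjusted p = 0.035). Fras1 was lost without Pcl2 shRNA replicate 2 (adjusted p = 0.0501) or without both samples numbered 1 (adjusted p = 0.0737). Frem2 was lost without Pcl2 shRNA replicate 1 or 2, mismatch control replicate 2 or 3 or both samples numbered 1, and with no signal filter (adjusted p up to 0.112).

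Of 26 other interstitial genes tested 7 fell (26.9%, against 8.16% of all genes tested) and none rose by limma. At an unadjusted p below 0.05 by limma 2 were higher, and the share of all genes at that cut was not worked out. The 4 lower genes with the smallest p were Ccn1, Efemp1, Ccn2 and Mfap2. Ccn1, a matricellular protein, averaged 78.8 ± 45.4 in Pcl2 shRNA cells and 1460 ± 589 in control cells (log2 -4.12, SE 0.39, adjusted p = 0.000168). Ccn2 (connective tissue growth factor) averaged 369 ± 134 in shRNA cells and 1640 ± 508 in control cells (log2 -2.15, SE 0.30, adjusted p = 0.00149). Efemp1 (fibulin 3) was at background in every shRNA sample, 9.10 ± 3.64 against 165 ± 86.3 in control cells, and at least 7.36-fold lower (adjusted p = 0.000412). Mfap2, a microfibril protein, averaged 19.6 ± 13.1 in shRNA cells, with 2 of 3 samples at background, and 116 ± 20.98 in control cells (log2 -2.30, adjusted p = 0.0016). Col2a1, a fibrillar collagen outside the set, also fell. It had 50.9, 33.0 and 51.0 in shRNA cells and 99.2, 126 and 162 in control cells (log2 -1.38, SE 0.25, adjusted p = 0.00538).

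Of 24 other collagen biosynthesis genes tested 2 fell (8.33%) and 1 rose (4.17%), close to the 8.16% and 4.46% of all genes tested. Bmp1, the protease that removes the C-terminal propeptide of fibrillar procollagens, had signals of 22.2, 9.91 and 9.10 in the Pcl2 shRNA cells and 226, 87.2 and 240 in the control cells (log2 -3.14, SE 0.39, adjusted p = 0.000765). Pcolce, which enhances that cleavage, moved the other way, with 825, 728 and 528 in the shRNA cells and 491, 270 and 264 in the control cells (log2 1.04, SE 0.26, adjusted p = 0.0246). The log2 value of Bmp1 rests on 2 shRNA samples at background and 1 just above it. Every Bmp1 value of the shRNA cells lay below the control values and every Pcolce value above them. Pcolce was lost without Pcl2 shRNA replicate 1 or 2 or mismatch control replicate 2 or 3 (up to adjusted p = 0.0915). P3h4, a partner of collagen hydroxylases, gave -0.88 (adjusted p = 0.0434) and was lost without Pcl2 shRNA replicate 2 or 3, mismatch control replicate 1 or 3 or both samples numbered 1, and with quantile normalization, no signal filter or eBayes without trend (adjusted p up to 0.117). The general folding enzymes P4hb and Ppib gave -0.03 and -0.23 and did not pass.

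**Figure D4:**
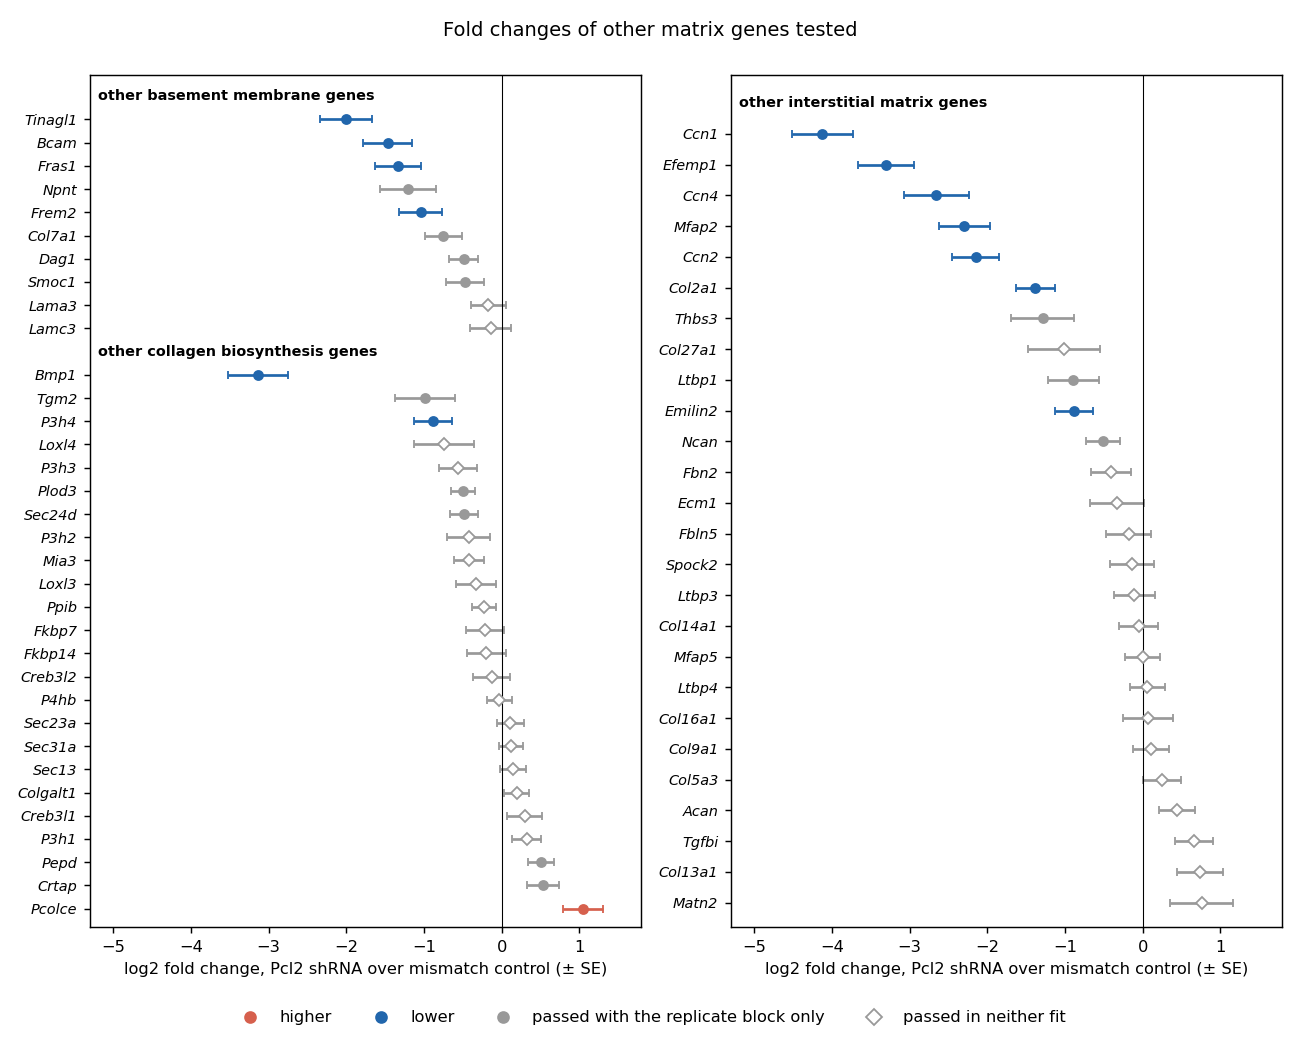
Log2 fold change, Pcl2 shRNA over mismatch control, with its SE for the other matrix genes tested, grouped by role, with the symbols of the plot by role. Ccn1 and Bmp1 lie at -4.12 and -3.14, and Pcolce, at 1.04, is the only gene past the threshold on the higher side.

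Markers of other cells that make matrix moved as follows. Of 6 smooth muscle markers tested 5 fell (Tagln, Cnn1, Acta2, Myl9 and Smtn), and their summed signal over 8 genes was 529 to 992 in the Pcl2 shRNA samples and 3985 to 5588 in the control samples, while Myh11, which defines mature smooth muscle, was at background on every array by its brightest probe set. The 5 that fell are 83.3% of the smooth muscle markers tested, against 8.16% of all genes tested. This list was also chosen with earlier results of these data known. Acta2 was lost without Pcl2 shRNA replicate 2 or 3 (up to adjusted p = 0.0721). Of 9 endoderm markers tested Dab2 fell (log2 -1.78, SE 0.24, adjusted p = 0.00106) and none rose by limma, although 2 were higher and 2 lower, Dab2 among them, at an unadjusted p below 0.05, and the sum over 15 was 417 to 583 in shRNA samples and 566 to 700 in control samples. Gata4 and Gata6, factors of the endoderm that secretes laminin-111 and type IV collagen, gave 0.003 and 0.034. Plat (tissue plasminogen activator), which parietal endoderm also makes, had 32.1, 27.4 and 31.0 in the shRNA cells and 100, 46.0 and 57.5 in the control cells (log2 -0.95, adjusted p = 0.0532, and 0.0177 with the block). Pth1r, a receptor of parietal endoderm under the filter, was at background in every shRNA sample and had 23.1, 33.4 and 28.3 in the control cells. The 2 endoderm markers that were higher at an unadjusted p below 0.05 were Srgn (log2 1.125, adjusted p = 0.153) and Hnf4a (log2 0.70, adjusted p = 0.105). Srgn overlapped between the groups, and every Hnf4a value of the shRNA cells lay above every control value. The share of all genes at the unadjusted cut was not worked out, so these counts have nothing to be set against. The 1 endoderm marker that fell is 11.1% of the 9 tested, against 8.16% of all genes tested. The part of these cells in the matrix results was not tested.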

How the data were processed

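RNA of 6 cultures was hybridised to Mouse Genome 430 2.0 arrays and scanned with an Affymetrix Scanner 3000, as the labels' protocols state. Each deposited value is a MAS5 signal, an intensity on a linear scale, which the authors obtained in GCOS 1.4, per the submitters' processing notes. Further settings are not stated in the sources used here. Every array had a mean of 150.001 once 2% of its values were trimmed at either end, so the deposited scaling was kept.

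The table held 45101 probe sets, of which 34945 named 1 gene in the platform annotation (control probe sets aside), and the RefSeq gene table of GRCm38.p6 gave current symbols for 34741. Signals became log2(signal + 7), 7 being the 20th percentile of all values, so fold changes understate dim genes. Probe sets with a mean log2 value at or above the 40th percentile (a signal of 20.2) were kept, 23186 in all, and the brightest stood for each gene in the test. limma 3.58.1 in R 4.3.3 (lmFit, eBayes with trend) compared the groups, two-sided, with Benjamini-Hochberg adjustment over all genes. The fit was tested on simulated data. No set test was run.

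Members and gene lists were chosen with earlier results of these data known. Named genes were the members, Mtf2, up to 4 passing genes with the smallest p per further matrix list, and passing markers. S100a4, Cdh11, Afp, Ttr, Myh11, Fap and Dpt were named after their values were seen. So were Gata4, Gata6, Plat, Pth1r, Srgn, Hnf4a, Amn, Col2a1, P4hb and Ppib. The background level was also chosen after the data were examined, and "at least" folds set the geometric mean of the brighter group against it. Deviations from group means correlated at 0.25 to 0.40 between samples of the same number and at -0.38 to 0 between others, so the numbers were taken as pairs from the data, not from the labels. Deviations sum to 0 within a group, so higher correlations for some pairs go with lower ones for others. The block fit used the same values that gave the pairs. Promoter sequences are RefSeq's. The alternatives changed the scaling (quantile, median centring), the pseudocount (1, 21), the filter (none, 60th percentile), the choice of probe sets (their mean, or none that can cross-hybridise), the eBayes options (no trend, robust) and the model (replicate block, array weights), and left out each array in turn or, chosen after seeing the data, both arrays numbered 1.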

Additional observations from a re-analysis of the deposited data

How the results depend on the processing

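Of the 9 matrix genes past the threshold, 5 kept their calls under all 19 alternatives, and the other 4 were lost only without both samples numbered 1, where 2 samples a group remain. None of the 9 changed sign. With the replicate block the lower calls numbered 6 in the basement membrane, 4 in the interstitial matrix and 2 in folding and cross-linking, with 23 lower and 3 higher in the wider lists and 1808 lower and 1305 higher over all genes. Without both samples numbered 1 the basement membrane had 1 lower and 1 higher, and all genes 483 lower and 192 higher. Array weights gave 885 higher over all genes. The wider lists had 7 lower with the filter at the 60th percentile, where fewer genes are tested, and 2 higher with a pseudocount of 21, the mean of probe sets or no cross-hybridising probe sets. Leaving out 1 array at a time gave 261 to 577 higher over all genes (261 without Pcl2 shRNA replicate 2, 386 without Pcl2 shRNA replicate 1), 1 to 2 lower in the interstitial matrix, 0 to 1 higher in folding and cross-linking and 0 to 2 higher in the wider lists. Other causes of these shifts were not tested.

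Of the 33 matrix genes that did not pass, 10 changed sign in some alternative. Vcan gave 0.054 with quantile normalization and 0.008 without both samples numbered 1. Col6a2 gave -0.029 with median centring, -0.19 with the mean of probe sets, -0.42 without cross-hybridising probe sets and -0.028 with array weights. Fbln1 gave -0.048 with the mean of probe sets, and array weights gave 0.06 for Col18a1 and -0.125 for Col12a1. Leaving out 1 array at a time, values ran from -0.16 to 0.055 for Col18a1, -0.051 to 0.20 for Lamc1, -0.47 to 0.65 for Col12a1, -0.073 to 0.097 for Col6a2, -0.034 to 0.37 for Fbln1, -0.66 to 0.48 for Fbln2, -0.28 to 0.088 for Eln, -0.099 to 0.046 for Vcan, -0.42 to 0.021 for Thbs2 and -1.48 to 0.115 for Tnc. The median of all genes was 0.024 as deposited, 0.026 with quantile normalization and -0.035 with median centring. Signals near 20.3 limit what can be said of dim genes.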
